A study of Saccharomyces cerevisiae with 24 samples.

Results

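The comparison described here asks whether 2 yeast strains, S288C and YPS, answered the same dose of caffeine with the same change in gene expression. Its members are the 12 RNA-seq libraries of these strains among the 24 of the series, chosen by their strain and growth labels. The 4 groups hold 3 libraries each: S288C without caffeine (libraries 25, 33 and 41), S288C in 20 mM caffeine (29, 37 and 45), YPS without caffeine (26, 34 and 42) and YPS in 20 mM caffeine (30, 38 and 46), and values are given in this order throughout. S288C stands for BY4742, a laboratory derivative whose published genotype lacks LEU2, LYS2, URA3 and part of HIS3, and YPS for YPS606, a strain isolated from oak woodland. All cells grew in synthetic defined medium and were collected at an optical density of 0.4, and exposure to caffeine lasted 4 h. The wider study scored the growth of gene deletions in S288C, YPS, Y55 and UWOP, with caffeine as one of its conditions. Its S288C deletions were made in another laboratory derivative than BY4742.

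Caffeine is a methylxanthine that inhibits the TORC1 kinase complex of budding yeast, the hub that couples nitrogen and amino acid supply to ribosome production and growth. When TORC1 is inhibited, ribosomal protein genes are turned down and genes for scavenging poor nitrogen sources are released from repression. Caffeine is also known to activate the cell wall integrity pathway, in which surface sensors of the WSC family signal through PKC1 to the kinase SLT2.

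The caffeine response of a strain is the log2 ratio of its libraries in caffeine to those without. The interaction is the response of YPS minus the response of S288C, so a positive value means that a transcript rose more or fell less in YPS. Levels are in CPM (counts scaled to the size of each library), a share of each library's RNA, so that a change in RNA per cell cannot be seen.

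Several of the genes that differed between the strains encode enzymes of leucine, lysine and uracil synthesis, pathways that BY4742 lacks a step of. Histidine synthesis is another such pathway, and of 4 genes listed for it 1 passed, higher in the interaction. These deletions come with the strain, so they cannot be told apart from its other differences, and a link was not tested. Upstream stretches are shown for leucine, lysine and uracil genes. In the interaction, called leucine and uracil genes were higher and called lysine genes lower. Each of these pathways also has its own dedicated activator (Leu3, Lys14 and Ppr1). The stretches come from the S288C reference genome (RefSeq, build R64) and are written 5′ to 3′ on the strand of the gene, with the motif of the activator in capitals. The motif letters searched on both strands, in the 500 bases before each start codon, were CCGG followed by any 2 bases and CCGG for Leu3, TCCNNNGGA for Lys14, and TTCGG followed by any 6 bases and CCGAA for Ppr1.
LEU1, Leu3 motif, chrVII:478840-478889, reverse strand: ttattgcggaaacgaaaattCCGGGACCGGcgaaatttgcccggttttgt
BAT1, Leu3 motif, chrVIII:517365-517414, forward strand: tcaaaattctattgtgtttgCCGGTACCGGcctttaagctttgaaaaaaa
ILV5, Leu3 motif, chrXII:839601-839650, reverse strand: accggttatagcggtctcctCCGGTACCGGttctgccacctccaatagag
ILV2, Leu3 motif, chrXIII:483596-483645, forward strand: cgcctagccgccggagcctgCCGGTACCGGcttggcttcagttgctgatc
URA1, Ppr1 motif, chrXI:25012-25067, forward strand: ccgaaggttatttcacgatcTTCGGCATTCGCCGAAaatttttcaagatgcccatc
LYS1, Lys14 motif, chrIX:420904-420952, reverse strand: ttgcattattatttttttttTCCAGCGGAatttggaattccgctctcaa
LYS9, Lys14 motif, chrXIV:715523-715633, reverse strand: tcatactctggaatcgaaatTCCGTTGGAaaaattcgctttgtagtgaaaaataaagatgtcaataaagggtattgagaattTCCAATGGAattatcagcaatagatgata
LYS12, Lys14 motif, chrIX:187786-187834, reverse strand: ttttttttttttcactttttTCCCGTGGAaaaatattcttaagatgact
LYS21, Lys14 motif, chrIV:227043-227091, forward strand: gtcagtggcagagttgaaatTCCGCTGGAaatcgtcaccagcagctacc

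Of 5833 upstream regions searched, 16 (0.274%) held the Leu3 motif, 2 (0.0343%) the Ppr1 motif and 350 (6%) the shorter Lys14 motif. GATAAG was found in 1335 (22.9%), among them 65 of 294 higher and 98 of 345 lower genes. Of the 16 genes with a Leu3 motif 5 were higher in the interaction (LEU1, BAT1, ILV5, GAT1 and FSF1), 1 was lower (GDH1, −1.75) and 10 were not called, among them ILV2 (0.32), BAP2 (−1.02) and LEU2, which S288C lacks. LYS21 (−0.06) was not called either. Of the 350 genes with a Lys14 motif 13 were higher and 26 lower. This called share is close to that of all 5833 regions, with 294 genes higher and 345 lower. The stretches of ILV2 and LYS21 are shown as matches without a call. Of the 2 genes with a Ppr1 motif, URA1 was higher and SPO24 (−1.15) was not called. No match was found in these windows for LEU4, LEU9, ILV3 or ILV6 (Leu3), or for URA2, URA4, URA5 or FUR1 (Ppr1). Nor was there one for LYS4 or LYS20 (Lys14). A match is a description of letters, not of binding.

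Library totals ran from 13967433 to 29303365 counts (median 21800082.5). In every S288C library LEU2, LYS2 and URA3 had at most 5 counts. YPS libraries held at least 3443, 3761 and 13147, as the strain labels require. HIS3, of which BY4742 lacks only a part, had 1693 to 4201 counts in S288C. In YPS it had fewer, 89 to 194 without caffeine and 783 to 1052 in caffeine. HIS3 therefore went the other way from the other deleted genes, and the reason was not tested. In both strains the alpha-factor gene MF(ALPHA)1 had at least 8803 counts and the a-factor gene MFA1 at most 62. Other mating type markers were less sharply divided. Of the a-specific genes, STE2 had 31 to 851 counts and STE6 149 to 2098, higher in caffeine in both strains. Of the alpha-specific genes, MF(ALPHA)2 had 1436 to 18569 counts and STE3 1868 to 9266, lower in caffeine in both strains. In 2 groups one library stood apart. S288C 37, in caffeine, correlated with the other S288C libraries in caffeine at r = 0.972 to 0.973 on log2 CPM, and YPS 42, without caffeine, with its own group at r = 0.972 to 0.973, while the other libraries reached at least 0.992 with another of their group. On a scale set by the other libraries of its strain, from 0 without caffeine to 1 in caffeine, S288C 37 lay at 0.72 and YPS 42 at 0.39, each displaced towards the opposite condition. Counts are therefore also given without both libraries, a choice made after seeing them, which shrinks the spread and makes the p-values of that fit too small. Nothing in the labels says whether replicates were separate cultures, so p-values measure the spread between these libraries.

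**Figure D1:**
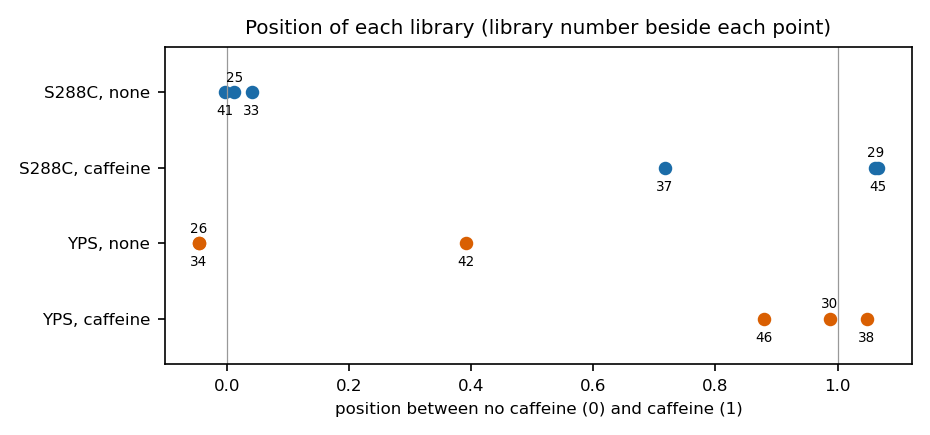
Position of each of the 12 libraries on its own strain's caffeine scale, where 0 is the mean of the other libraries without caffeine and 1 that of the other libraries in caffeine. Libraries 37 of S288C (0.72) and 42 of YPS (0.39) lie between the conditions, and the other 10 lie from −0.05 to 0.04 or from 0.88 to 1.07.

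Caffeine changed the expression of a large part of the genome in both strains, and the response of a smaller set of genes differed between the strains. Of 6361 genes tested, 654 (10.3%) had an interaction that passed an adjusted p of 0.05 in edgeR's quasi-likelihood test, 303 of them higher (4.76%) and 351 lower (5.52%) in YPS. In S288C 3303 genes responded (51.9%; 1855 rose and 1448 fell), and in YPS 2457 (38.6%; 1268 rose and 1189 fell). The interaction count was 256 for differences of at least 2-fold, and 1750 genes had an unadjusted p under 0.05. DESeq2 called 1031 genes, 591 higher and 440 lower, a different balance of directions from edgeR, so no direction is given to the set as a whole. Leaving out S288C 37 gave 1326 genes, leaving out YPS 42 gave 1290, and leaving out both gave 2446 (1392 higher and 1054 lower), which included 653 of the 654. In the fit without both, 38.3% of 6385 genes tested passed, and counts of list members from that fit are to be read beside this share. List counts from the fit of all 12 libraries are to be read beside 10.3% called, 4.76% higher and 5.52% lower. Leaving out any one of the other 10 libraries gave 334 (S288C 25) to 489 (YPS 26).

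Across genes, which are not independent, the responses of the strains correlated with a Pearson's r of 0.67, and 73.8% of genes had the same sign in both. Among the 654 genes the response was smaller in size in YPS for 449 and larger for 205. That share was not counted over all genes. The spread of responses over all genes tested was also smaller in YPS, with a standard deviation of 0.85 beside 0.92 in S288C. The most frequent pattern was a rise in S288C with no called change in YPS (172 genes). A fall in S288C with no called change in YPS followed (139). A missing call in YPS depends in part on YPS 42, without which 3123 genes were called in YPS. A further 65 genes fell and 60 rose in YPS with no called change in S288C. In 70 genes the strains moved in called, opposite directions, 34 of them falling in S288C and rising in YPS and 36 the reverse.

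**Figure D2:**
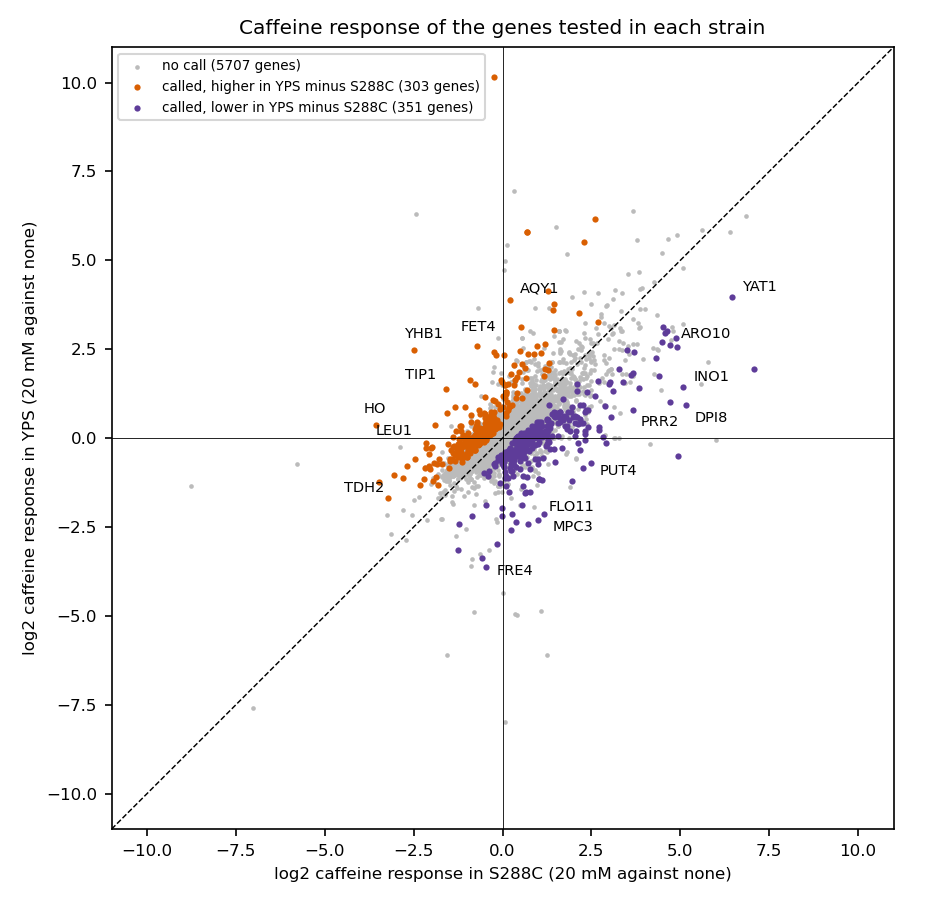
Log2 caffeine response in S288C (horizontal axis) and in YPS (vertical axis) of the 6361 genes tested, with the 303 genes higher and the 351 genes lower in the interaction in colour and equal responses on the dashed line. YHB1, FET4 and TIP1 lie in the quadrant where S288C fell and YPS rose, and MPC3, FLO11 and PUT4 in the opposite one. Unlabelled points far from the origin include genes with few counts, whose log2 values are imprecise.

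The largest interaction among well-counted genes belonged to YHB1 (YGR234W, chrVII:959904-961103), the flavohemoglobin that detoxifies nitric oxide. It stood at 525, 626 and 596 CPM in S288C and at 99.3, 95.5 and 118 CPM in S288C in caffeine, against 4.68, 4.33 and 5.50 CPM in YPS and 21.2, 30.7 and 28.8 CPM in YPS in caffeine. The transcript fell in S288C by 2.48 on the log2 scale and rose in YPS by 2.47, no groups overlapped, and the interaction was 4.95 (standard error 0.22, edgeR adjusted p = 5.38e-07). FET4, the low-affinity iron transporter, moved the same way. Its levels were 135, 122 and 110 CPM in S288C, 81.0, 54.1 and 88.1 CPM in S288C in caffeine, 7.11, 8.16 and 12.4 CPM in YPS and 53.9, 62.9 and 49.5 CPM in YPS in caffeine (interaction 3.30, adjusted p = 0.000146). TIP1, a mannoprotein of the cell wall, went from 821, 1016 and 817 to 312, 262 and 313 CPM in S288C and from 94.1, 92.0 and 132 to 273, 254 and 299.8 CPM in YPS (interaction 2.96, adjusted p = 4.34e-05). In all 3 genes the strain difference present without caffeine shrank in caffeine, and for FET4 and TIP1 the caffeine groups of the strains overlapped.

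Moving the other way was FLO11 (YIR019C, chrIX:389572-393675), the flocculin that gives cells their adhesion and filamentous growth. It had 23.6, 24.6 and 26.4 CPM in S288C and 65.0, 31.2 and 53.3 CPM in S288C in caffeine, but 5728, 6882 and 2586 CPM in YPS and 1041, 903 and 1155 CPM in YPS in caffeine. FLO11 thus rose in S288C by 1.01 and fell in YPS by 2.29 (interaction −3.30, standard error 0.47, adjusted p = 0.00182), with S288C 37 and YPS 42 as the libraries nearest to the opposite condition. MPC3, a subunit of the mitochondrial pyruvate carrier, had 12.7, 10.8 and 9.13 CPM in S288C, 32.2, 18.5 and 22.7 CPM in S288C in caffeine, 69.1, 96.4 and 19.6 CPM in YPS and 15.5, 14.9 and 11.7 CPM in YPS in caffeine (interaction −3.31, adjusted p = 0.00781). PUT4, the proline permease, rose in S288C from 3.20, 4.06 and 3.94 to 27.2, 17.6 and 17.98 CPM and fell in YPS from 22.8, 30.7 and 16.4 to 15.7, 12.9 and 14.4 CPM (interaction −3.18, adjusted p = 0.000293).

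**Figure D3:**
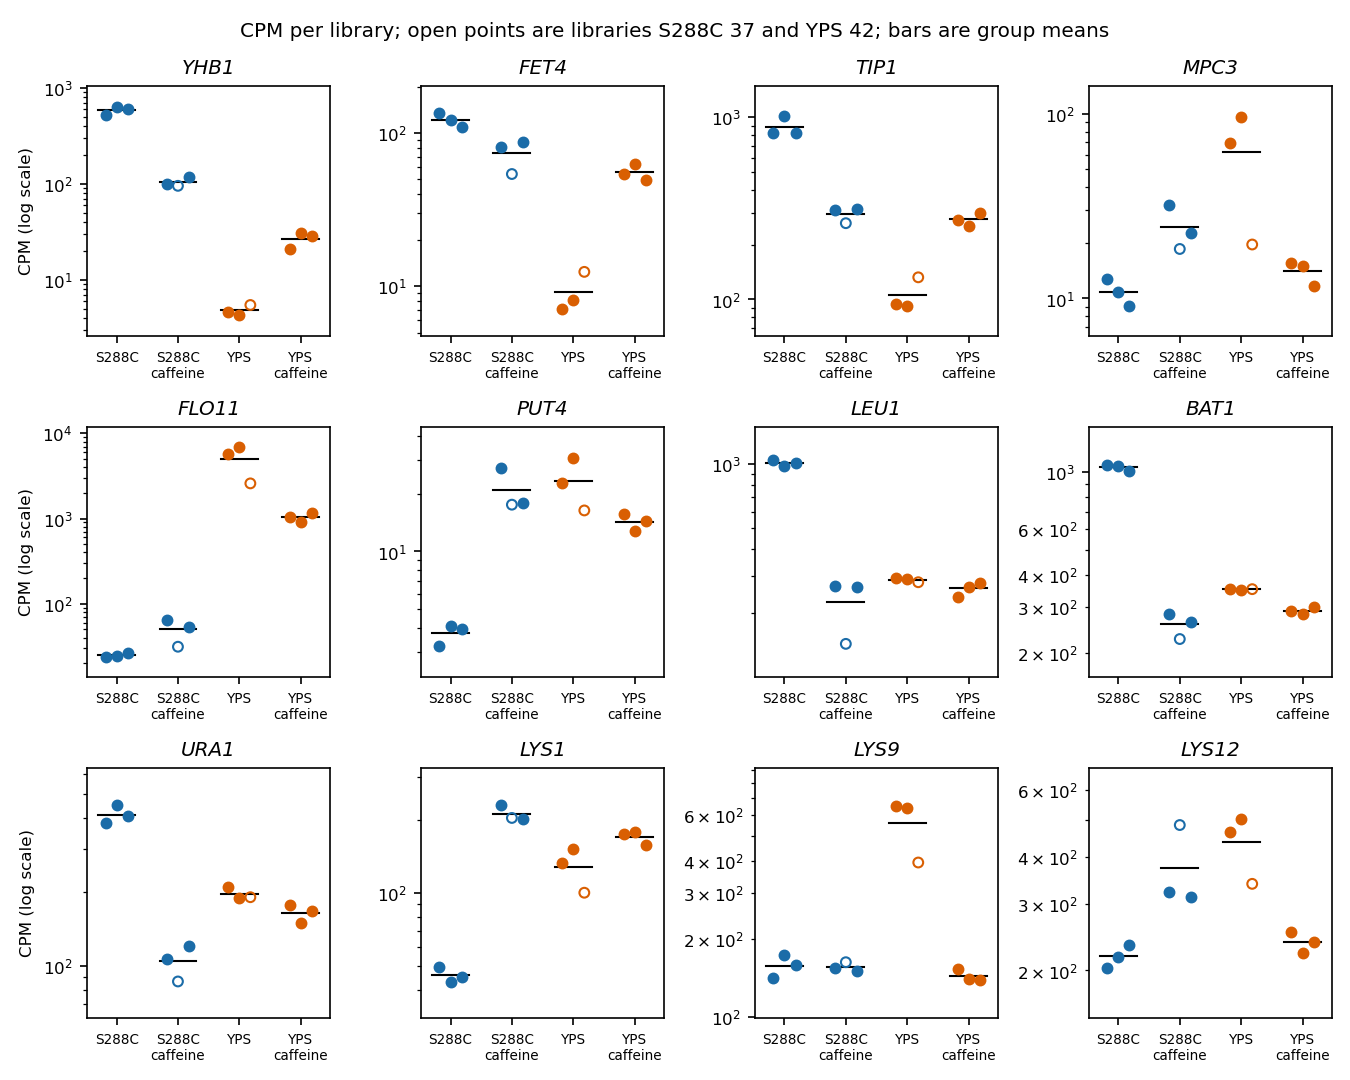
CPM on a log axis for 12 genes, each point one library and each bar the mean of 3, with open points for libraries S288C 37 and YPS 42. The top row holds 3 genes that fell in S288C and rose in YPS and 1 with the reverse pattern. The lower rows show that LEU1, BAT1 and URA1 fell steeply in S288C and stayed near their first level in YPS, and that LYS9 fell in YPS with no called change in S288C.

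HO and AQY1 changed by call in only one strain. HO, the endonuclease of mating type switching, dropped from 87.2, 90.3 and 95.7 to 6.40, 9.68 and 7.30 CPM in S288C and had 9.39, 8.71 and 12.8 against 13.3, 14.1 and 12.3 CPM in YPS, where its response was 0.36 (adjusted p = 0.113). The interaction of HO was 3.91. AQY1, a water channel, rose from 0.786, 0.803 and 5.35 to 35.4, 32.4 and 33.6 CPM in YPS only, and its interaction was 3.66 (adjusted p = 0.0113). The remaining genes with high interactions were QDR2 (2.25) and AQR1 (2.22), both exporters of drugs of the major facilitator family, TDH2 (2.0035), a glyceraldehyde-3-phosphate dehydrogenase, MDH2 (1.93), the cytosolic malate dehydrogenase, and ALD5 (1.91), a mitochondrial aldehyde dehydrogenase. AQR1 and MDH2 fell in S288C and rose in YPS, TDH2 fell in both strains, and QDR2 and ALD5 fell in S288C with no called change in YPS. In YPS ALD5 had 207, 199 and 74.6 against 96.0, 83.4 and 97.1 CPM, with YPS 42 below every YPS library in caffeine. Without both outlying libraries its interaction was 1.45. TDH2 has near-identical copies with which it can share reads, and its values are uncertain for that reason.

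Among genes with low interactions, DPI8 rose in S288C from 11.4, 9.36 and 8.47 to 354, 432 and 269 CPM and had 72.4, 101 and 11.04 against 134, 110 and 106 CPM in YPS, where library YPS 42 stood at the S288C level (interaction −4.24, adjusted p = 0.00695). INO1, the rate-limiting enzyme of inositol synthesis, had 9.07, 8.84 and 8.54 CPM in S288C and 420, 40.4 and 434 CPM in S288C in caffeine, against 8.65, 8.84 and 16.5 and then 32.1, 34.2 and 25.0 CPM in YPS. Its interaction was −3.66 (adjusted p = 0.028), and its adjusted p lay between 0.0562 and 0.0705 without any one library of S288C (25, 33 or 41), of YPS in caffeine (30, 38 or 46) or without S288C 29 or 45. FRE4, a ferric reductase, fell in YPS from 657, 746 and 206 to 37.0, 40.0 and 53.9 CPM with 15.7 to 27.3 CPM in all S288C libraries (interaction −3.15). PRR2, a protein kinase, rose in both strains, by 3.66 in S288C and 0.79 in YPS. YJR115W, which has no assigned role, fell in both, by 3.38 in YPS and 0.57 in S288C. HMX1, the heme oxygenase, rose by call only in S288C, from 10.7, 8.98 and 10.4 to 62.5, 82.9 and 52.0 CPM. In YPS HMX1 had 99.1, 115 and 230 against 191, 166 and 157 CPM, with YPS 42 above every YPS library in caffeine. Its interaction was −2.50, and −1.79 without both outlying libraries. CPP3 rose in both strains, by 4.39 in S288C and 1.76 in YPS. TMA10, a protein associated with ribosomes (interaction −3.16), had 12.9, 13.5 and 7.75 against 63.2, 12.1 and 56.4 CPM in S288C. There S288C 37 stood at the level without caffeine. In YPS TMA10 had 31.0, 44.4 and 66.7 against 26.9, 17.7 and 16.8 CPM. TMA10 lost its call without S288C 41 (adjusted p = 0.0525) or YPS 38 (0.0504). SUT1, a regulator of sterol uptake, (interaction −2.82, adjusted p = 0.0427) lost it without any one of the 10 libraries other than S288C 37 and YPS 42 and in the fit of all 24 libraries (0.0703 to 0.0999).

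The direction of the called amino acid genes differed between pathways. Of 48 genes listed for amino acid synthesis under GCN4, 16 passed the interaction test, 9 higher and 7 lower, with a median interaction of 0.31 beside −0.05 over all genes tested. Without S288C 37 and YPS 42 the counts were 28 higher and 7 lower. GCN4 itself, the activator of these genes, had an interaction of 0.09 (adjusted p = 0.787), with 952 to 1221 CPM in the 12 libraries; its activity is known to be set mainly by translation, which RNA levels do not show.

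Of 6 lysine genes listed, 5 passed, all lower (LYS1, LYS4, LYS9, LYS12 and LYS20), with a median response of −0.82 in YPS and 0.22 in S288C, and the same number passed without the 2 outlying libraries. LYS9 (YNR050C, chrXIV:714048-715388), a saccharopine dehydrogenase of the second last step, fell in YPS from 651, 643 and 395 to 153, 141 and 139 CPM and had 142, 173 and 158 against 155, 163 and 151 CPM in S288C, so that the strains met in caffeine (interaction −1.95, standard error 0.23, adjusted p = 0.000634). LYS1, which makes lysine in the last step, rose in S288C from 49.7, 43.1 and 45.2 to 231, 204 and 202 CPM and less in YPS, from 133, 152 and 100.3 to 176, 178 and 158 CPM (interaction −1.80, adjusted p = 0.000293). LYS12, the homoisocitrate dehydrogenase, rose in S288C by 0.78 and fell in YPS by 0.88, and LYS4, the homoaconitase, rose by 0.33 and fell by 0.77. LYS20, a homocitrate synthase, had an interaction of −1.16 but shares reads with its paralog LYS21, and no library had a whole count for it. LYS4, LYS12, LYS20, ILV3, ILV5 and HIS1 are named after their values were seen.

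Of 10 genes listed for leucine, isoleucine and valine synthesis, 5 passed, all higher, and 9 passed without S288C 37 and YPS 42. LEU1 (YGL009C, chrVII:476313-478652), the isopropylmalate isomerase, fell in S288C from 1042, 983 and 1018 to 268, 144 and 265 CPM and had 294, 289 and 279.5 against 238, 267 and 279 CPM in YPS (interaction 2.03, standard error 0.27, adjusted p = 0.00124). BAT1, the mitochondrial branched-chain aminotransferase, fell in S288C from 1058, 1049 and 1008 to 284, 227 and 264 CPM and in YPS from 354, 351.5 and 353 to 291, 282 and 299.8 CPM (interaction 1.73, adjusted p = 6.26e-05). For both genes S288C started well above YPS and ended at or below it. ILV3, the dihydroxyacid dehydratase, fell by 1.71 in S288C and by 0.73 in YPS. ILV5, the reductoisomerase before it, had an interaction of 1.15 (adjusted p = 0.0305) that did not pass without any one library of S288C (25, 33 or 41), of YPS in caffeine (30, 38 or 46) or without S288C 29 or 45 (0.0527 to 0.076). Outside these branches, HIS1, the first enzyme of histidine synthesis, fell in S288C by 0.49 and rose in YPS by 1.15. ARO10, a decarboxylase that turns aromatic amino acids into fusel alcohols, rose in both strains, from 33.0, 33.1 and 33.7 to 1070.0, 392 and 1145 CPM in S288C and from 23.2, 22.6 and 22.8 to 143, 158 and 124 CPM in YPS (interaction −2.08, adjusted p = 0.0108).

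Nucleotide synthesis genes were higher where they passed. Of 30 listed, 5 passed, all higher, with a median interaction of 0.66, and 23 were higher and 1 lower without the outlying libraries. URA1 (YKL216W, chrXI:25215-26159), the dihydroorotate dehydrogenase, fell in S288C from 380, 451 and 405 to 107, 86.4 and 120 CPM and had 210, 188 and 190.1 against 176, 150 and 167 CPM in YPS (interaction 1.73, standard error 0.18, adjusted p = 0.000221). URA4, the dihydroorotase, fell in S288C from 183, 215 and 202 to 72.5, 92.2 and 74.7 CPM and had 93.7 to 116 CPM in all YPS libraries (interaction 1.52, adjusted p = 0.000221). FUR1, the uracil phosphoribosyltransferase of the salvage route, fell in both strains, by 2.32 in S288C and 1.31 in YPS. The 10 ADE genes of purine synthesis had a median response of 1.504 in YPS and 0.28 in S288C. Only ADE13, the adenylosuccinate lyase, passed (interaction 1.37, adjusted p = 0.0389), not without any one of the 10 libraries other than S288C 37 and YPS 42 (0.0679 to 0.0935), and 9 of the 10 passed without both. In ADE13 the outlying libraries were the highest of their groups, S288C 37 at 770 beside 432 and 504 CPM and YPS 42 at 605 beside 344 and 302 CPM.

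**Figure D4:**
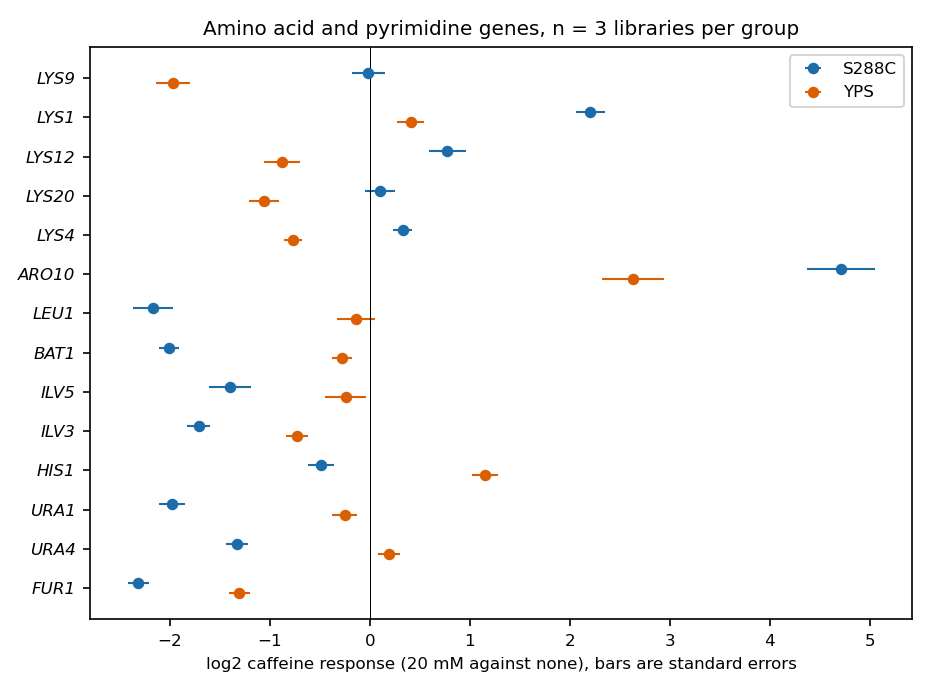
Log2 caffeine response in S288C and in YPS with standard errors for 14 genes of amino acid and pyrimidine metabolism, from 3 libraries per group. The 5 LYS genes and ARO10 lie lower in YPS than in S288C, and the leucine, isoleucine, valine, histidine and uracil genes lie higher.

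Nitrogen catabolite genes, which TORC1 holds down on good nitrogen sources, rose in both strains: 22 of 27 listed rose in S288C (median response 1.44) and 21 in YPS (0.91). In the interaction 4 were higher and 5 lower. Besides PUT4, DUR3, the urea permease, rose from 12.7, 12.6 and 15.8 to 72.1, 64.9 and 67.1 CPM in S288C and from 5.90, 6.74 and 9.14 to 11.6, 12.9 and 12.01 CPM in YPS (interaction −1.57, adjusted p = 0.00162). GAP1, the general amino acid permease, and MEP2, an ammonium permease, had interactions of −1.19 and −1.01. GAP1 did not pass without any one of 9 libraries, the exceptions being S288C 37, S288C 45 and YPS 26 (0.0508 to 0.0952). MEP2 did not pass without any one library of S288C (25, 33 or 41), of YPS in caffeine (30, 38 or 46), without S288C 29 or 45, or in the fit of all 24 libraries (0.0693 to 0.18), and without both outlying libraries the interaction was −0.66 for GAP1 and −0.72 for MEP2. GAT1, a GATA activator of these genes, was higher by 0.75 (adjusted p = 0.0465), which did not pass without any one of 10 libraries (all but S288C 33 and YPS 42) or with length offsets (0.051 to 0.118), and none of its counts was whole.

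Genes of carbon metabolism were mostly lower where they passed. Of 17 genes of gluconeogenesis and the glyoxylate cycle, 4 were lower and 1, MDH2, higher. The carnitine system, which carries acetyl groups between compartments, stood out, with 3 of 4 genes lower and a median response of 4.07 in S288C and 2.37 in YPS. YAT1, a carnitine acetyltransferase, rose from 4.94, 3.69 and 2.89 to 298, 413 and 307 CPM in S288C and from 2.59, 2.29 and 4.20 to 51.9, 44.0 and 46.0 CPM in YPS (interaction −2.49, standard error 0.33, adjusted p = 0.00109). YAT2, the related enzyme, and CRC1, the mitochondrial carnitine carrier, had interactions of −1.33 and −2.07. Of 51 genes of respiration and the citric acid cycle, 9 were lower and none higher with TMM (7 lower with RLE size factors), while 14 were lower and 9 higher without the outlying libraries. CIT1, the mitochondrial citrate synthase, rose from 129, 174 and 155 to 875, 989.8 and 887 CPM in S288C and from 157, 176 and 262 to 429, 492 and 437 CPM in YPS (interaction −1.40). RIP1, the Rieske protein of complex III, rose by 0.54 in S288C and fell by 0.36 in YPS. HAP4, the limiting subunit of the activator of respiratory genes, fell in both, by 2.41 in YPS and 1.24 in S288C, but its interaction did not pass in the fit of all 24 libraries (adjusted p = 0.0938). Of 19 hexose transport genes 4 were lower and 1 higher, SNF3, the high-affinity glucose sensor, among the lower (−1.17, adjusted p = 0.00635).

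Of 19 listed iron genes, a list that does not hold FET4, 5 were lower, HMX1 among them, and 1 was higher. The higher one was FIT1, a mannoprotein that retains siderophores, which went from 50.5, 47.1 and 34.5 to 19.9, 31.6 and 20.7 CPM in S288C and from 17.6, 16.9 and 27.3 to 32.5, 31.1 and 33.4 CPM in YPS (interaction 1.52, adjusted p = 0.0118). Without the outlying libraries, 10 were lower and 3 higher.

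SLT2, the kinase at the end of the integrity pathway, rose in both strains, in S288C from 131, 148 and 109 to 552, 583 and 569.9 CPM and in YPS from 113, 102 and 172 to 846, 895 and 734 CPM. Its interaction was 0.54 (standard error 0.26, adjusted p = 0.197), but it passed without YPS 42 (0.84, adjusted p = 0.00824) and without both outlying libraries (0.86, adjusted p = 0.00226). Of 15 genes of the cascade 2 were lower, one of them the sensor WSC3, which fell in YPS from 70.7, 76.4 and 54.6 to 31.1, 32.7 and 32.8 CPM and had 58.3, 64.03 and 63.97 against 79.3, 82.6 and 67.7 CPM in S288C (interaction −1.36, standard error 0.17, adjusted p = 0.000818). Of 30 cell wall proteins and enzymes 1 was higher, with median responses of 0.61 in YPS and 0.60 in S288C, but without the outlying libraries 14 were higher and 2 lower.

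Surface adhesins and pheromone genes were lower where they passed. Of 14 flocculins and filamentation factors 4 were lower and none higher. Of 5 FLO adhesins 3 were lower, but only 2 of the 5, FLO10 and FLO11, had whole counts in at least 10 libraries. FLO10 behaved like FLO11 on a smaller scale, from 21.3, 23.8 and 21.7 to 36.2, 30.7 and 35.8 CPM in S288C and from 162, 188 and 80.9 to 44.2, 50.6 and 53.9 CPM in YPS (interaction −2.16, adjusted p = 0.0027). Of 15 pheromone response genes 5 were lower (3 with RLE size factors), among them PRM1, which acts in membrane fusion (−1.07), and KAR4, a transcription factor of mating (−0.84). PRM1 did not pass without S288C 25, 33 or 45 or YPS 30 (0.0509 to 0.0566), nor KAR4 without S288C 25, 29 or 33 or YPS 30, 34 or 38 (0.0508 to 0.0618).

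Ribosomal protein genes fell in both strains, in 134 of 138 genes in S288C and 106 in YPS. Their median response was −1.29 in S288C and −0.77 in YPS, and the median interaction 0.49, but the interaction passed in only 2 (1.45%). With S288C 37 and YPS 42 left out it passed in 127, all higher, where 38.3% of all genes passed. The call for this list therefore rests on whether these libraries are kept. RPL22B, one of the 2, had 140, 145 and 153 against 52.0, 70.2 and 65.8 CPM in S288C and 195, 157 and 118 against 143, 153 and 161 CPM in YPS (interaction 1.18, adjusted p = 0.00903). Of 48 ribosome biogenesis and RNA polymerase I genes 2 were higher and 2 lower (8.33% called, beside 10.3% of all genes tested). RPA43, a polymerase I subunit, had the largest interaction of the called ones (0.78). Of 24 TOR, Ras and PKA genes 1 was higher and 3 lower (16.7% called). LST8, a subunit of both TOR complexes, rose from 55.8, 57.1 and 48.7 to 117, 109 and 112 CPM in S288C and from 57.8, 54.9 and 57.8 to 77.2, 75.5 and 66.3 CPM in YPS (interaction −0.70, adjusted p = 0.00604). TOR1, the kinase subunit of TORC1 that caffeine acts on, had 70.2, 72.1 and 75.4 against 112, 74.4 and 111 CPM in S288C and 57.5, 63.2 and 52.7 against 60.7, 73.1 and 66.5 CPM in YPS, with an interaction of −0.24 (adjusted p = 0.474). Without both outlying libraries TOR1 passed (−0.43, adjusted p = 0.0147), and S288C 37 alone of the S288C libraries in caffeine lay at the level without it.

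Cell cycle genes were higher where they passed. Of 22 cyclins and histones 9 were higher and none lower (40.9%), and 15 without the outlying libraries. In S288C 18 of them fell, in YPS 6. PCL1, a G1 cyclin of the kinase PHO85, had 91.2, 102 and 104 against 75.2, 78.1 and 70.4 CPM in S288C and 55.5, 54.9 and 60.6 against 95.8, 76.3 and 80.2 CPM in YPS (interaction 0.97, standard error 0.14, adjusted p = 0.00209). Of the 8 core histone genes 5 were higher, with a median response of −1.03 in S288C and −0.05 in YPS, but only 2 of the 8 had whole counts, since their copies share sequence. CLN2, the G1 cyclin that commits cells to division, and HTB2, a histone H2B gene, had interactions of 1.35 and 1.24, neither of which passed without any one of the 10 libraries other than S288C 37 and YPS 42 (0.0567 to 0.0729 and 0.0669 to 0.111). For both genes S288C 37 was the S288C library in caffeine nearest to the level without it, at 131 beside 64.7 and 69.1 CPM for CLN2.

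Drug transporters split by family member. Of 26 genes 2 were higher (QDR2 and AQR1) and 6 lower (4 with RLE size factors). QDR2 fell in S288C from 251, 256 and 240.4 to 60.6, 83.3 and 56.9 CPM and had 9.87, 11.7 and 17.7 against 16.4, 16.9 and 16.8 CPM in YPS. AQR1 fell in S288C from 85.1, 93.5 and 114 to 39.7, 37.4 and 38.7 CPM and rose in YPS from 74.6, 66.2 and 38.8 to 108, 110 and 112 CPM. RSB1, which moves sphingoid bases across the plasma membrane, rose in S288C from 36.1, 34.2 and 28.2 to 66.7, 66.9 and 66.5 CPM and fell in YPS from 231, 245 and 332 to 118, 113 and 133 CPM (interaction −2.17, standard error 0.20, adjusted p = 0.000128). RTA1, of the same family, rose in both strains, by 3.61 in S288C and 1.77 in YPS. PDR5, the main drug efflux pump, had an interaction of −0.54 (adjusted p = 0.113) and SNQ2, which exports other toxins, one of −0.28 (adjusted p = 0.658). PDR5 passed with DESeq2 (−0.48, adjusted p = 0.035), without S288C 37 (−0.68, adjusted p = 0.0052) and without both outlying libraries (−0.63, adjusted p = 0.000769), and SNQ2 without both (−0.71, adjusted p = 0.00216).

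Among the remaining lists, oxidative stress genes (19.0% called) and sulfate and methionine genes (16.7%) lay above the 10.3% of all genes tested. Ergosterol genes (11.5%) and proteasome genes (9.09%) lay near it, and the other lists below it. Of 27 heat shock and stress genes 1 was lower, of 22 autophagy genes 1 was lower, of 18 osmosensing genes 1 was lower (GPP2, a glycerol-3-phosphatase, −1.19, adjusted p = 0.00324), of 16 phosphate genes 1 was higher, and none of 16 trehalose and glycogen genes or of 17 genes of the unfolded protein response passed. Without S288C 37 and YPS 42, 10 trehalose and glycogen genes were higher and 1 lower. Of 21 oxidative stress genes 3 were higher and 1 lower, among them SOD1, the copper-zinc superoxide dismutase (0.94), and GLR1, the glutathione reductase (0.71), both of which fell in S288C, by 0.98 and 0.91. Of 26 ergosterol genes 2 were higher and 1 lower, ERG6, the sterol methyltransferase, among the higher (0.66). Of 24 sulfate and methionine genes 3 were higher and 1, STR3, a cystathionine lyase, lower (−1.42), MET22, a phosphatase of sulfate assimilation, being higher (0.80). Of 33 proteasome genes 3 were higher, and 17 were higher and 1 lower without the outlying libraries.

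**Figure D5:**
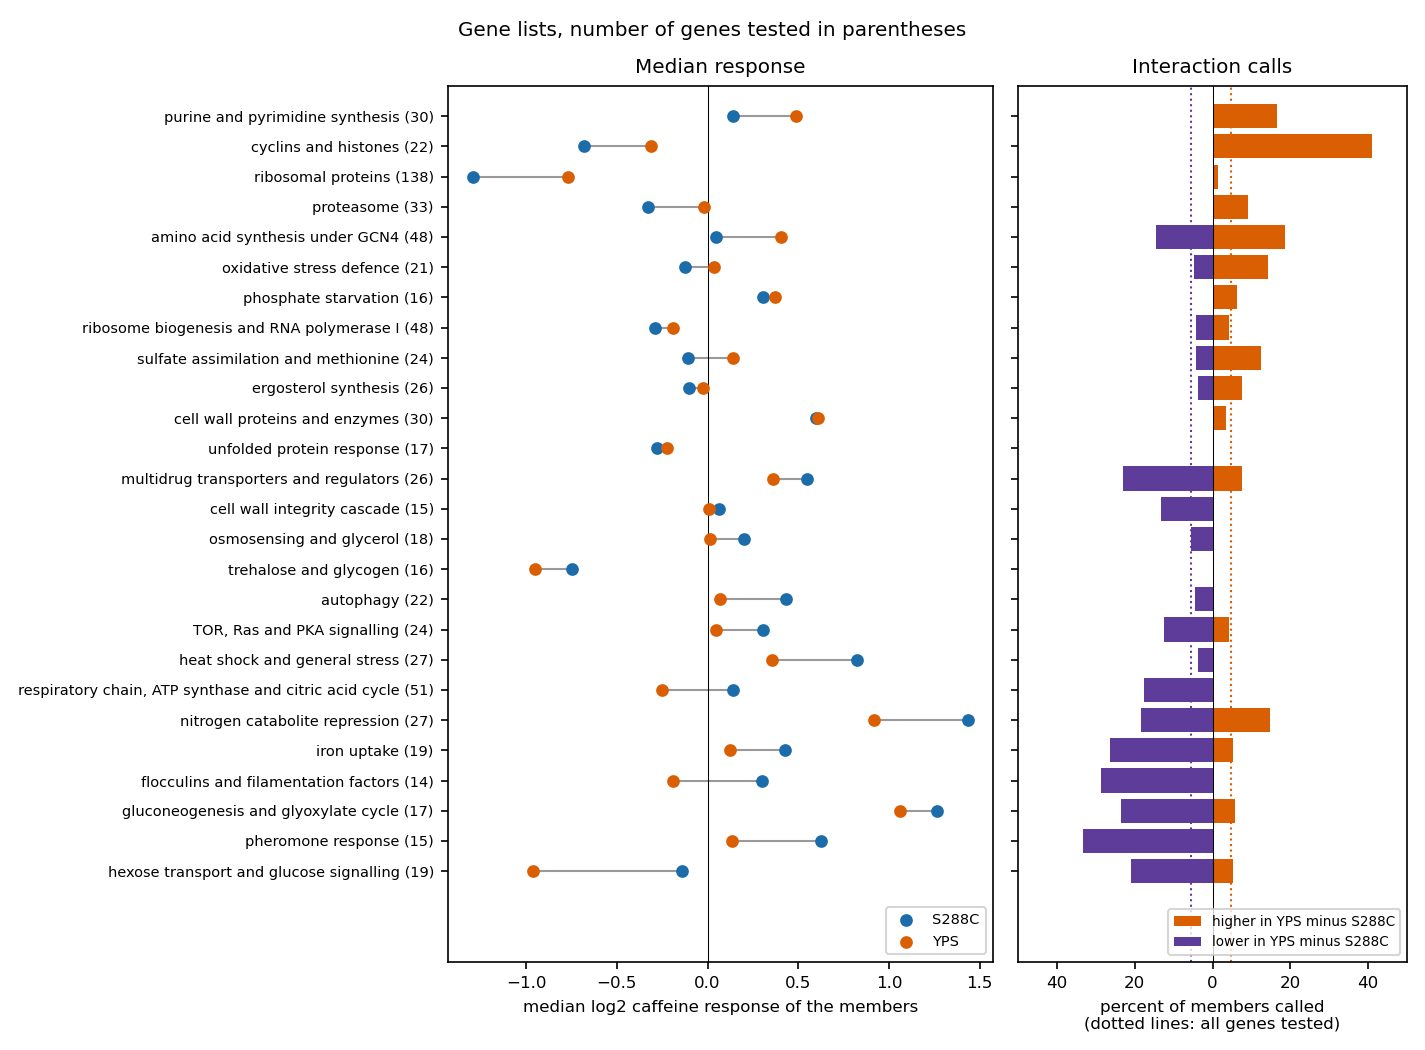
Left, median log2 caffeine response of each gene list in S288C and in YPS, and right, the percentage of its members that were higher or lower in the interaction, with dotted lines at the percentages over all genes tested (4.76% higher and 5.52% lower). With TMM and all 12 libraries, 40.9% of cyclins and histones were higher and 33.3% of pheromone response genes lower (3 of 15 with RLE size factors).

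The responses of Y55 and UWOP, which come from other libraries and share no controls with the comparison, were set beside those of the 654 genes. In 74.5% of these genes both Y55 and UWOP had a response nearer to that of YPS than to that of S288C, and in 15% both were nearer to S288C, against 56.5% and 25.5% of all genes. LYS9 had responses of −1.498 in Y55 and −1.57 in UWOP, beside −1.97 in YPS and −0.01 in S288C, and LEU1 had −0.56 and −0.72, between YPS and S288C. URA1, which fell in S288C, had responses of 0.63 and 0.86 in Y55 and UWOP, and HO, which fell steeply in S288C, had −0.29 and −0.59. FLO11 had responses of −0.09 and 0.09 in Y55 and UWOP, between the opposite responses of S288C and YPS. These values were not tested.

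Positions were matched for 5843 of the genes tested, and the other 518 are left out here. By chromosome, the share of genes with a called interaction ran from 6.74% (chromosome I) to 13.8% (chromosome XIV). Within 30 kb of a chromosome end, 56 of 369 genes passed (15.2%), against 585 of 5474 farther in (10.7%).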

How the data were processed

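RNA of 24 yeast samples was sequenced from stranded poly(A) libraries, and 12 libraries are used here. Per the labels, the authors trimmed reads with Trimmomatic 0.36 and quantified transcripts of build R64 with kallisto 0.44.0. The deposited values are estimated counts per transcript, which need not be whole, with effective lengths; the deposited TPM column was not used. A further 6 deposited tables hold the authors' own DESeq2 comparisons of strains (fold changes and p-values) and were not used.

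Estimated counts were rounded and fitted with edgeR 4.0.16 in R 4.3.3 (filterByExpr, TMM factors, 1 coefficient for each of the 4 groups, quasi-likelihood F-test, Benjamini-Hochberg adjustment, threshold 0.05). The filter kept 6361 of 6713 transcripts. Standard errors are the log2 value divided by the square root of F. Reads of YPS were matched to S288C transcripts, which affects levels between strains, while each response is taken within a strain. Gene symbols and sequences are from RefSeq, build R64, the build named in the labels. The fit was tested on simulated counts.

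Genes were named by rule: a called interaction, an average of 10 CPM or more, every library above 3 counts, and counts whole within 0.001 in at least 10 of the 12; of these, the 12 highest and 12 lowest interactions, the 6 largest with opposite responses, and up to 4 called members of each of 26 lists, plus PDR5, SNQ2, TOR1, SLT2, GCN4 and GAT1. A further 6 genes were named after their values were seen. The members, lists and rule were chosen with earlier results of these data known. The pattern of the ribosomal list also matched RPP1, a subunit of RNase P, which was left out. Alternatives were RLE size factors, DESeq2 1.42.0, no filter, length offsets, all 24 libraries, whole counts only, stricter thresholds, each library left out in turn, and, added after seeing the data, S288C 37 and YPS 42 left out together and a block for sets of library numbers. Responses of Y55 and UWOP come from the fit of all 24 libraries. The depth limits low genes only, and counting error is included in the fit.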

Additional observations from a re-analysis of the deposited data

Results flagged for a closer look

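The number of genes whose caffeine response differed between the strains, 654, is listed here because the interaction test itself found a difference between groups under the same contrast. The same test singles out the 6 well-counted genes with the largest interactions among those that moved in called, opposite directions, with interactions of 4.95 for YHB1, −3.31 for MPC3, −3.30 for FLO11, 3.30 for FET4, −3.18 for PUT4 and 2.96 for TIP1 (edgeR adjusted p from 5.38e-07 to 0.00781, in all 3 libraries of each group). With 3 libraries per group, no group was large enough for a test of single outlying libraries.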

How the results depend on the processing

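No named gene changed sign in any alternative that gave it a value. Of 67 named genes with a called interaction, 54 kept the call in all 19 alternatives run for single genes, and the other 13 lost it in at least one. The labels give each library its own number and name no pairing, but the numbers run in 3 consecutive sets that hold each group once. Deviations from group means correlated at −0.27 to 0.33 (median −0.03) in 18 pairs of the same set and at −0.33 to 0.31 (median −0.02) in 36 pairs of different sets, so the sets were not taken as pairs. A replicate block by set, added after seeing the data, gave 452 genes for the interaction (444 of them among the 654), 2296 for YPS and 3190 for S288C, and INO1, SUT1, GAP1, MEP2, HTB2 and GAT1 did not pass (adjusted p from 0.05001 to 0.0869). The interaction count of 654 was 1031 with DESeq2, 2446 without both S288C 37 and YPS 42 (chosen after seeing the data), 224 at an adjusted p under 0.01 and 256 for changes of at least 2-fold, and ranged from 334 to 1326 as each library was left out. The count of 2457 for YPS was 3779 without both libraries, 1358 at an adjusted p under 0.01 and 652 for changes of at least 2-fold, and ranged from 1708 to 3123 as each library was left out. The count of 3303 for S288C was 1081 for changes of at least 2-fold and ranged from 2756 to 3840 as each library was left out. With RLE size factors the interaction count was 650 (359 higher and 291 lower). Of 66 alternatives of the 3 counts, 47 stayed within 1.5 times. The cause was not tested where a library decided the count; fewer libraries and a stricter threshold lower a count by construction.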
